A study of Mus musculus with 7 samples.

Results

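Fibroblast growth factors (FGFs) are secreted proteins that bind tyrosine kinase receptors on the cell surface, usually together with heparan sulfate chains, and pass their signal on through the RAS and ERK cascade. In the lung, Fgf7 and Fgf10 from mesenchymal cells act on the epithelium through a splice form of Fgfr2, a route known from lung branching and from the repair of the alveolar epithelium. Fgf2 is a mitogen for fibroblasts, which carry mainly Fgfr1. The genes described here were the ligands Fgf1, Fgf2, Fgf7, Fgf9, Fgf10 and Fgf18 and the receptors Fgfr1, Fgfr2, Fgfr3 and Fgfr4, chosen by name. These 10 genes, 6 ligands and 4 receptors, were found among the 55401 genes of the count table through their GENCODE vM21 symbols, and all 10 were among the 17465 genes that passed the filter on low counts.

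RNA was sequenced from the lungs of 4 mice given bleomycin alone (BLM) and 3 mice given bleomycin and then hyperbaric oxygen (BLM+HBO), with 1 library per mouse. All were male C57BL/6 mice, 6 to 8 weeks old at the start, and all lungs were collected on day 21 after bleomycin, a drug that injures the alveolar lining and is followed by fibrosis. Hyperbaric oxygen (HBO), pure oxygen inhaled above normal air pressure, was given from day 7 in 14 exposures of 90 min at 2.5 ATA. The BLM mice stayed in the chamber without pressurized oxygen according to the sample records and were untreated according to the methods, and which applied was not settled. Lungs without bleomycin were not analysed here, so each difference is one between injured lungs.

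Each library held between 18157161 and 26365969 counts. In each of 11 lists of marker genes for lung and neighbouring cell types, all tested markers had reads in every mouse. The groups were not uniform. On the first principal component, which held 37.3% of the variance, BLM+HBO 1 and BLM+HBO 3 lay at 54.8 and 37.8, BLM+HBO 2 lay at -0.996, and the BLM mice lay between -47.6 and -6.08. Results that depend on BLM+HBO 2 are therefore given with and without it. That mouse was singled out from these same data, so a fit without it is a description and not a separate test.

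The level of a gene in a mouse was expressed in CPM, its reads relative to the TMM-normalized size of that library. Differences are log2 fold changes of BLM+HBO over BLM with their standard errors (SE), from edgeR's quasi-likelihood test over all 17465 genes, and means are given with their SD over 4 BLM and 3 BLM+HBO mice. A gene is said to have risen or fallen where it passed the thresholds of the study, an unadjusted P below 0.05 and a fold change above 1.5. Of all tested genes 6.29% did so, 3.40% higher and 2.89% lower in BLM+HBO. With P adjusted by the Benjamini-Hochberg method, 0 genes (0.00%) were below 0.05 in edgeR, and 1861 genes (10.7%) had an unadjusted P below 0.05, 5.11% higher and 5.54% lower in BLM+HBO. In the edgeR fit without BLM+HBO 2, 10.7% of the 17879 genes tested passed the thresholds and 1.49% had an adjusted P below 0.05.

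Among the 10 FGF genes, 2 passed the thresholds, Fgf1 and Fgfr2, both higher in BLM+HBO. Fgfr3 also had an unadjusted P below 0.05, with a smaller fold change, so that 3 of the 10 were higher at that P, against 5.11% of all tested genes. The other 7 did not reach an unadjusted P of 0.05, and Fgf2 and Fgfr1 had the lower means in BLM+HBO among the more abundant of them. The median log2 fold change was -0.11 over the 10 genes and 0.01 over all tested genes. By DESeq2, the tool named in the study's methods, the genes that passed were Fgf2 and Fgfr2, where 4.25% of all 32868 genes with a value did. Those genes were not filtered on low counts, so that share does not compare directly with the one in edgeR. None of the 10 had an adjusted P below 0.05 by either tool. In RNA from a whole lung, fewer cells of a type and less RNA per cell cannot be told apart.

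**Figure D1:**
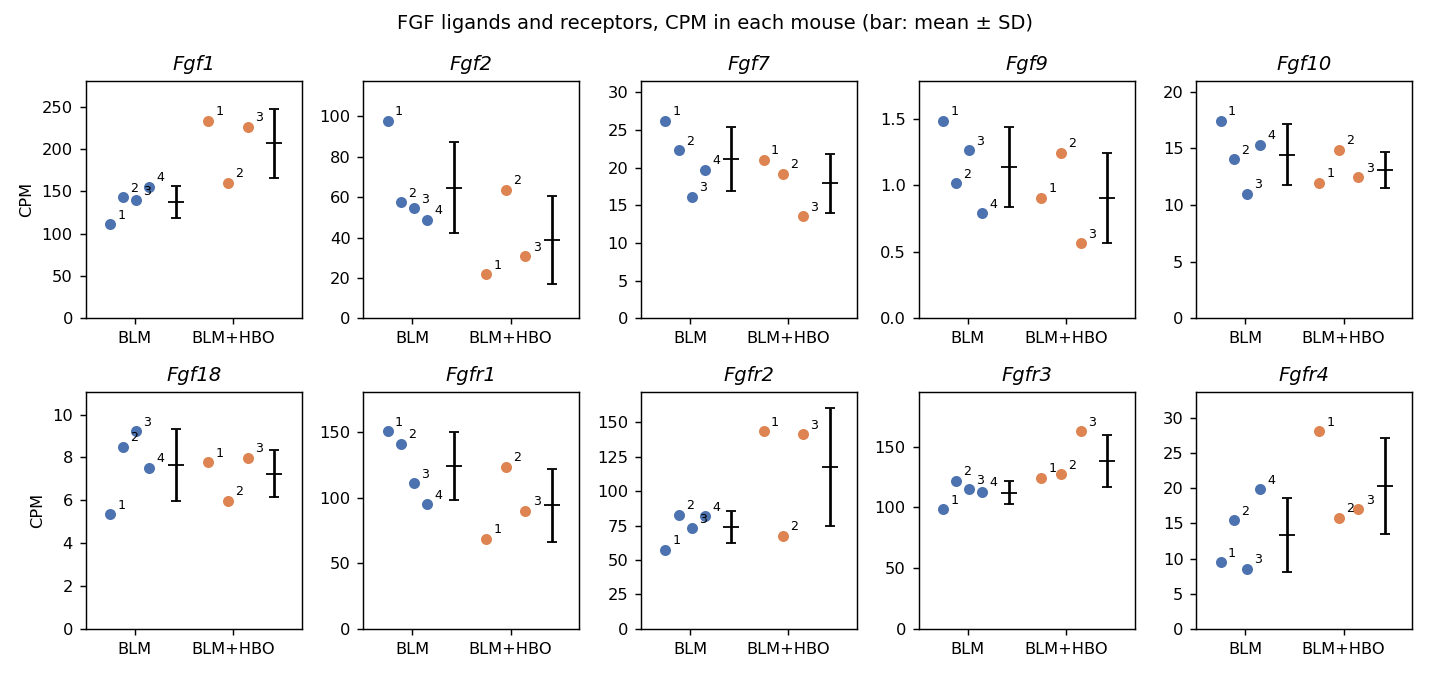
CPM of the 6 FGF ligands and 4 FGF receptors (vertical axes, each from 0) in 4 BLM mice (blue) and 3 BLM+HBO mice (orange), numbered by replicate, with the group mean ± SD in black. For Fgf1, Fgf2, Fgfr1 and Fgfr2 the point of BLM+HBO 2 lies nearer to the BLM mice than those of BLM+HBO 1 and BLM+HBO 3.

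The promoter windows of the genes are shown first, because HBO changes the oxygen supply and hypoxia-inducible factors bind DNA at a short core. The core was searched as ACGTG and as GCGTG on both strands, in RefSeq windows of GRCm38.p6 around annotated transcription starts. Of the 10 genes, 8 matched a window, with 9 windows in all. ACGTG was in 3 of these 9 windows (Fgfr2, Fgfr4 and Fgf9) and GCGTG in 5, against 19.6% and 32.4% of all 32851 windows. The windows are printed for the 3 genes among these 8 whose log2 fold change was furthest from 0, with matches on either strand in capitals.
Fgf2, chr3:37348403-37348702, plus strand: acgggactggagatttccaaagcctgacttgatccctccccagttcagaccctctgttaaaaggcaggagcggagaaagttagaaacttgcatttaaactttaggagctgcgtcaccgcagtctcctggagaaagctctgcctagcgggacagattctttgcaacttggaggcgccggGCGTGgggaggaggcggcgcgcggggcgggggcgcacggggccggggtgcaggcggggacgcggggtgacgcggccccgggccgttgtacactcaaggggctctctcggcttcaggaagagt
Fgfr2, chr7:130266759-130267058, minus strand: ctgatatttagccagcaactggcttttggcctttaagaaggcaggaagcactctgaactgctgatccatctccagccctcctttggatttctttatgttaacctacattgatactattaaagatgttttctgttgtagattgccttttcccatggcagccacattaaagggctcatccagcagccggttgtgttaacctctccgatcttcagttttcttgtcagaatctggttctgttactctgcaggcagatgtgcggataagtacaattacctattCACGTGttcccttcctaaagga
Fgfr4, chr13:55152568-55152867, plus strand: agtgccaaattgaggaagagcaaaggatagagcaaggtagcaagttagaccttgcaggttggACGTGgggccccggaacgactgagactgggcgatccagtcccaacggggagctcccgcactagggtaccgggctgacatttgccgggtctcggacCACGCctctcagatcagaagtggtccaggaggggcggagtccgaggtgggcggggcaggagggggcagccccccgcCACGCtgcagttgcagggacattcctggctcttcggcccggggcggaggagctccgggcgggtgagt

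The window of Fgfr2 held 2 matches to ACGTG that overlap in 1 palindrome, CACGTG, read on each strand. The window of Fgfr4 held 1 match to ACGTG and 2 to GCGTG, and that of Fgf2 held 1 match to GCGTG. The GC content of these windows was 43.7% for Fgfr2, 65.3% for Fgfr4 and 62.7% for Fgf2. A match describes the letters of the window and is not a measured binding site.

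Among the ligands, Fgf1, which can bind every FGF receptor, had the highest level. Fgf1 was at 111, 143, 140 and 156 CPM in BLM 1 to BLM 4. It was at 234, 160 and 226 CPM in BLM+HBO 1 to BLM+HBO 3. Every BLM+HBO mouse was above every BLM mouse, although BLM+HBO 2 was only just above BLM 4. The means were 137 ± 18.8 CPM and 207 ± 40.5 CPM, a log2 fold change of 0.59 ± 0.16 (SE), with an unadjusted P of 0.00455 and an adjusted P of 0.423. Fgf1 therefore rose by a fold of 1.51, just over the limit of 1.5. By DESeq2 its log2 fold change was 0.58, just under that limit, with an unadjusted P of 0.00116 and an adjusted P of 0.0844. It was also under the fold limit when BLM 1 was left out (0.50), and likewise for BLM+HBO 1 (0.49) and BLM+HBO 3 (0.51), while the unadjusted P in the 7 fits that left out 1 mouse was at most 0.0213. Without BLM+HBO 2 the difference was 0.74, with an adjusted P of 0.0450, in a fit where 1.49% of all tested genes were below 0.05. The gene lies on the minus strand of chromosome 18 in GRCm38, and none of its exon bases were shared with another annotated gene.

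Fgf2, the fibroblast mitogen that is stored on heparan sulfate in the matrix, had the opposite order of means. Fgf2 was at 98.0, 57.4, 54.6 and 48.9 CPM in BLM 1 to BLM 4. It was at 21.9, 63.6 and 30.8 CPM in BLM+HBO 1 to BLM+HBO 3. The groups overlapped through BLM+HBO 2, which was above 3 of the 4 BLM mice, while the other two BLM+HBO mice were below every BLM mouse. Its log2 fold change was -0.74 ± 0.36 (SE), with an unadjusted P of 0.0672 and an adjusted P of 0.500. Fgf2 passed the thresholds by DESeq2 (unadjusted P of 0.0258) and by limma-trend (0.0373), with no filter on low counts, and without BLM+HBO 2, where the log2 fold change was -1.29 and the adjusted P 0.0642. Without BLM 1, the highest mouse, it was -0.47. Of the exon bases of Fgf2, 13.2% are shared with Nudt6 on the opposite strand or with Gm43439, and reads there were left out of the count or cannot be assigned to a strand.

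Fgf7 and Fgf10, the mesenchymal ligands of the epithelial form of Fgfr2, did not pass the test. Fgf7 lay between 16.1 and 26.3 CPM in BLM mice and between 13.5 and 21.1 CPM in BLM+HBO mice, with a log2 fold change of -0.24 ± 0.20 (SE) and an adjusted P of 0.701. Fgf10 lay between 10.98 and 17.5 CPM in BLM mice and between 12.0 and 14.9 CPM in BLM+HBO mice, with a log2 fold change of -0.14 ± 0.18 (SE) and an adjusted P of 0.815. For both ligands the groups overlapped.

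Fgf18 and Fgf9, known from lung growth before and after birth, were the ligands with the fewest reads. Fgf18 lay between 5.34 and 9.22 CPM in BLM mice and between 5.98 and 7.99 CPM in BLM+HBO mice, with a log2 fold change of -0.08 ± 0.23 (SE), an adjusted P of 0.932 and a change of sign when BLM 3 or BLM+HBO 2 was left out. Fgf9 had between 15 and 27 reads per mouse, or 0.562 to 1.49 CPM, and a log2 fold change of -0.34 ± 0.41 (SE) with an adjusted P of 0.795. At this depth a fold of 1.5 in Fgf9 would lie within 2 SE of no difference.

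Among the receptors, Fgfr2, the receptor of Fgf7 and Fgf10 on epithelial cells, had the largest log2 fold change. Fgfr2 was at 57.6, 82.9, 73.2 and 81.9 CPM in BLM 1 to BLM 4. It was at 144, 67.8 and 141 CPM in BLM+HBO 1 to BLM+HBO 3. BLM+HBO 1 and BLM+HBO 3 were above every BLM mouse, and BLM+HBO 2 lay within the BLM range. The means were 73.9 ± 11.7 CPM and 118 ± 43.1 CPM, and Fgfr2 rose by a log2 fold change of 0.67 ± 0.24 (SE), with an unadjusted P of 0.0213 and an adjusted P of 0.427. Without BLM+HBO 2 the log2 fold change was 0.94 and the adjusted P 0.0308, in a fit where 1.49% of all tested genes were below 0.05. Fgfr2 did not pass when BLM 1 was left out (0.57), nor for BLM+HBO 1 (0.50) or BLM+HBO 3 (0.51). Fgfr2 is annotated on chromosome 7 over a span that reaches into Ctbp2, and 3.04% of its exon bases are shared with that gene.

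Fgfr1, the receptor known mainly from mesenchymal cells, did not pass. Fgfr1 was at 150, 141, 111 and 94.9 CPM in BLM 1 to BLM 4. It was at 68.5, 123 and 89.8 CPM in BLM+HBO 1 to BLM+HBO 3. As for Fgf2, BLM+HBO 1 and BLM+HBO 3 were below every BLM mouse and BLM+HBO 2 was within their range. Its log2 fold change was -0.40 ± 0.22 (SE), with an unadjusted P of 0.0939 and an adjusted P of 0.538. Without BLM+HBO 2 it was -0.65, with an adjusted P of 0.160. This was past the thresholds of the study, as were 10.7% of all genes tested in that fit.

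Fgfr3 and Fgfr4 are known for their shared part in forming alveoli after birth. Fgfr3 was at 98.7, 122, 115 and 113 CPM in BLM mice and at 124, 127 and 163 CPM in BLM+HBO mice. The groups did not overlap, as for Fgf1, and 8.77% of all tested genes did not overlap either. The log2 fold change of Fgfr3 was 0.30 ± 0.13 (SE), with an unadjusted P of 0.0408 and an adjusted P of 0.458, and its fold of 1.23 was under the limit. Of its exon bases 13.9% are shared with G630022F23Rik on the opposite strand.

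Fgfr4 was at 9.53, 15.4, 8.56 and 19.9 CPM in BLM mice and at 28.1, 15.8 and 17.0 CPM in BLM+HBO mice. The spread among BLM mice was wide, and BLM 4 was above BLM+HBO 2 and BLM+HBO 3. The log2 fold change of Fgfr4 was 0.60 ± 0.31 (SE), with an unadjusted P of 0.0843 and an adjusted P of 0.522, and it passed the thresholds with no filter on low counts, at 0.60, and when BLM 4 was left out, at 0.86.

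**Figure D2:**
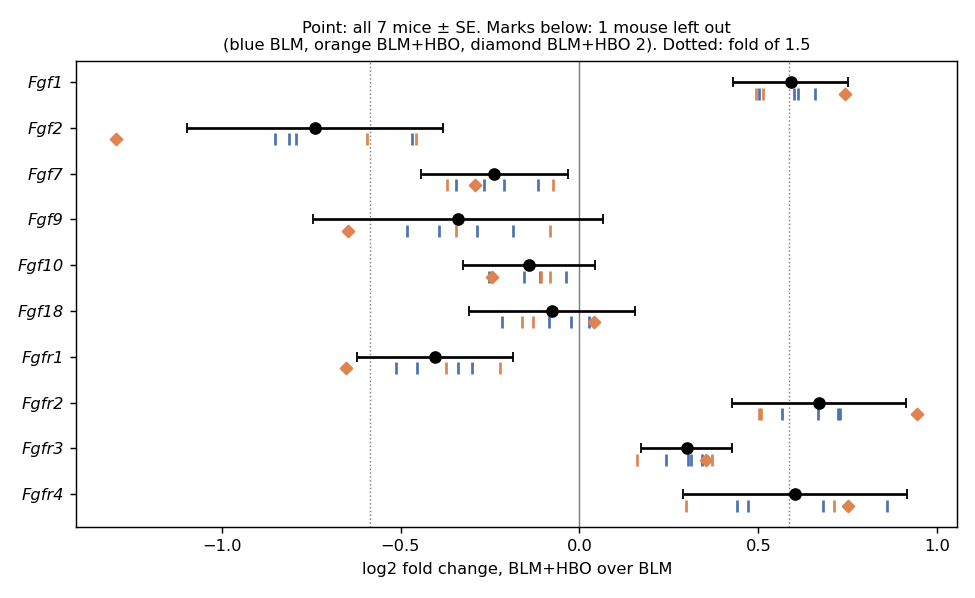
Log2 fold change of BLM+HBO over BLM for the 10 FGF genes (black points, horizontal bars ± SE), with the fits that left out 1 mouse below each point (blue for a BLM mouse, orange for a BLM+HBO mouse, diamond for BLM+HBO 2) and dotted lines at a fold of 1.5. Leaving out BLM+HBO 2 moved Fgf1 and Fgfr2 to 0.74 and 0.94 and Fgf2 and Fgfr1 to -1.29 and -0.65.

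Levels of different genes were compared as CPM per kilobase of exon. In BLM mice Fgf1 was highest at 25.1, above Fgfr3 at 15.7 with no overlap between mice, and Fgf9 was lowest at 0.245, below Fgf10 at 3.14 with no overlap. Between them came Fgfr1 at 12.6, Fgf2 at 9.54, Fgfr2 at 7.16, Fgf7 at 6.50, Fgf18 at 6.45 and Fgfr4 at 3.77 CPM per kilobase, where each neighbour in the order overlapped the next over the mice. Fgf1 was above 87.4% of tested genes on this scale and Fgf9 above 5.18%.

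In BLM+HBO mice Fgf1 at 37.9 and Fgfr3 at 19.3 CPM per kilobase again led. Fgfr2 came next at 11.4, before Fgfr1 at 9.51, the reverse of their order in BLM mice, and these neighbours overlapped over the mice. Fgf18 at 6.11, Fgfr4 at 5.73, Fgf2 at 5.72 and Fgf7 at 5.52 followed, each overlapping the next. Fgf10 at 2.85 and Fgf9 at 0.194 CPM per kilobase were lowest, with no overlap between them or with Fgf7.

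The receptor makeup was described as each receptor's share of the summed receptor CPM per kilobase. Fgfr1 held 40.9%, 32.6%, 30.5% and 24.7% of it in BLM 1 to BLM 4, and 15.04%, 30.3% and 18.1% in BLM+HBO 1 to BLM+HBO 3. Fgfr2 held 14.95%, 18.4%, 19.3% and 20.4% in the BLM mice, and 30.1%, 15.9% and 27.2% in the BLM+HBO mice. The ratio of Fgfr2 to Fgfr1 per kilobase was thus between 0.366 and 0.826 in the BLM mice, and 2.0, 0.525 and 1.5 in the BLM+HBO mice. Fgfr2 was above Fgfr1 in BLM+HBO 1 and BLM+HBO 3, and below it in BLM+HBO 2 and in all 4 BLM mice. The share of Fgfr3 lay between 37.0% and 45.2% over all 7 mice. These counts are summed over splice forms, so the epithelial and mesenchymal forms of a receptor were not separated.

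Among the 6 ligands, Fgf1 held 39.5% to 55.2% of the summed CPM per kilobase in the BLM mice, and 69.2%, 55.2% and 69.4% in the BLM+HBO mice. Fgf2 held 14.0% to 28.0% in the BLM mice, and 5.23%, 17.6% and 7.60% in the BLM+HBO mice. The ratio of Fgf1 to Fgf2 per kilobase was between 1.41 and 3.95 in the BLM mice and 13.2, 3.13 and 9.13 in the BLM+HBO mice. BLM+HBO 2 lay within the BLM range for this ratio too.

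**Figure D3:**
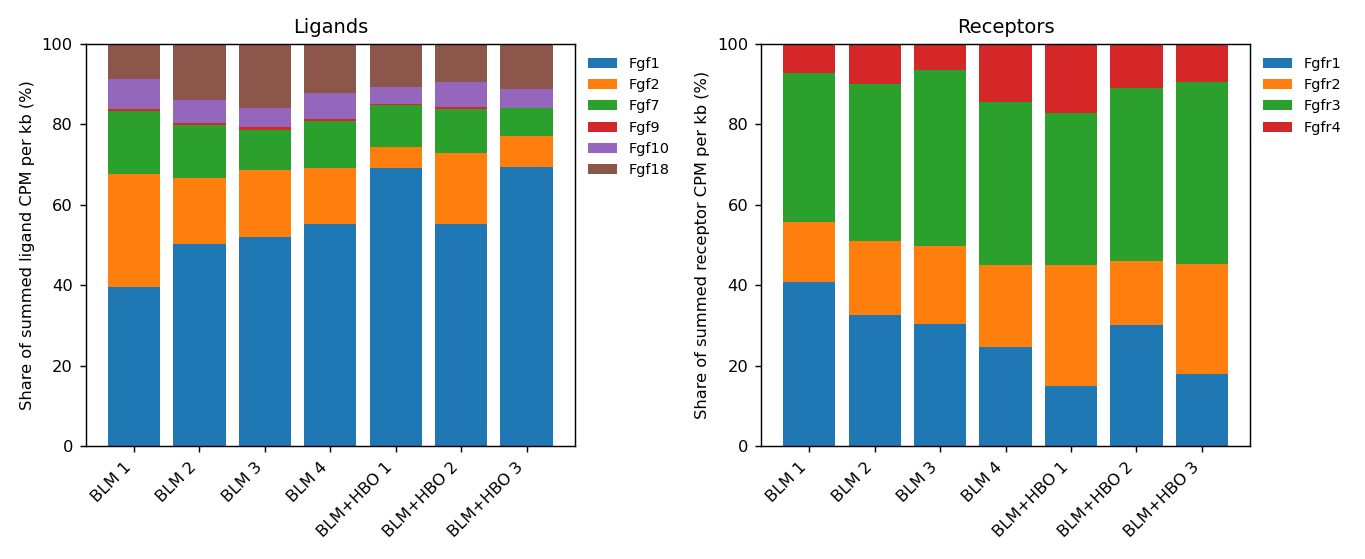
Share (%) of each of 6 ligands (left) and 4 receptors (right) in their summed CPM per kilobase of exon, with 1 stacked bar per mouse. The Fgf1 segment is largest and the Fgfr1 segment smallest in BLM+HBO 1 and BLM+HBO 3, where Fgf1 holds 69.2% and 69.4% and Fgfr1 15.04% and 18.1%.

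Summed markers of lung cell types are set beside these genes in each mouse, and no association between them was tested. The counts of markers past the thresholds stand against 3.40% of all tested genes higher and 2.89% lower in BLM+HBO. Markers of alveolar type 2 (AT2) cells, the surfactant-making epithelial cells that carry Fgfr2, summed to between 9567 and 17420 CPM in BLM mice and to 25530, 12083 and 29298 CPM in BLM+HBO 1 to BLM+HBO 3, with 2 of 10 markers higher by the thresholds. Airway epithelial markers summed to between 5831 and 12290 CPM in BLM mice and to 14585, 9729 and 19941 CPM in the BLM+HBO mice, with 3 of 8 higher. Most of the airway sum was Scgb1a1, with a mean of 7538 CPM in BLM mice. The means of 2 of the 8 were lower in BLM+HBO, with log2 fold changes of -1.13 for Scgb3a1 and -0.82 for Muc5b. Fgfr2 and both sums were thus highest in BLM+HBO 1 and BLM+HBO 3. The endothelial and alveolar fibroblast sums, given below, were highest in the same mice. Markers of AT1 cells, the flat cells of gas exchange, summed to between 5953 and 8344 CPM in BLM mice and between 7720 and 8637 CPM in BLM+HBO mice, and 0 of 10 passed.

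Markers of activated fibroblasts, such as Cthrc1 and Postn, summed to between 10626 and 17032 CPM in BLM mice and to 2709, 11433 and 5445 CPM in BLM+HBO 1 to BLM+HBO 3, with 7 of 11 lower. Fgf2 and Fgfr1, like this sum, were lowest in BLM+HBO 1. Mesothelial markers summed to between 741 and 1198 CPM in BLM mice and to 591, 829 and 426 CPM in the BLM+HBO mice, with 2 of 8 lower. Smooth muscle and myofibroblast markers had 1 of 10 lower and adventitial fibroblast markers 1 of 8 lower, with sums of 683 to 1006 and 888 to 1028 CPM in BLM mice and 607 to 824 and 757 to 979 CPM in BLM+HBO mice. The mesothelial, smooth muscle and adventitial sums were, like Fgf2 and Fgfr1, lowest in BLM+HBO 1 and BLM+HBO 3. That order was thus not particular to activated fibroblasts. The part of these cell types in the values of Fgfr2, Fgf2 and Fgfr1 was not tested.

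Markers of alveolar fibroblasts, such as Tcf21 and Npnt, summed to between 2360 and 3371 CPM in BLM mice and to 4403, 2997 and 3429 CPM in the BLM+HBO mice, with 3 of 11 higher. Heart muscle markers summed to between 76.4 and 212 CPM in BLM mice and to 783, 616 and 180 CPM in BLM+HBO 1 to BLM+HBO 3, with 12 of 13 higher. Fgf1 had the same order as that last sum over 6 of the 7 mice, from BLM 1, lowest in both, to BLM+HBO 1, highest in both. BLM+HBO 3 departed from it, with a heart muscle sum within the BLM range and Fgf1 at 226 CPM. The part of heart muscle in the values of Fgf1 was not tested. Endothelial markers had 0 of 10 past the thresholds, with sums of 2562 to 3596 CPM in BLM mice. Their sums were 3812, 3129 and 3843 CPM in BLM+HBO 1 to BLM+HBO 3. Like Fgf1, the endothelial sum was lowest in BLM 1 and highest in BLM+HBO 1 and BLM+HBO 3. The AT2 and airway epithelial sums were also lowest in BLM 1 and highest in BLM+HBO 1 and BLM+HBO 3. A likeness to Fgf1 was thus not particular to heart muscle or to endothelium, and the part of these other cell types was not tested either. Leukocyte markers had 2 of 12 higher and 2 lower, with sums of 6098 to 7943 CPM in BLM and 6418 to 9147 CPM in BLM+HBO mice.

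**Figure D4:**
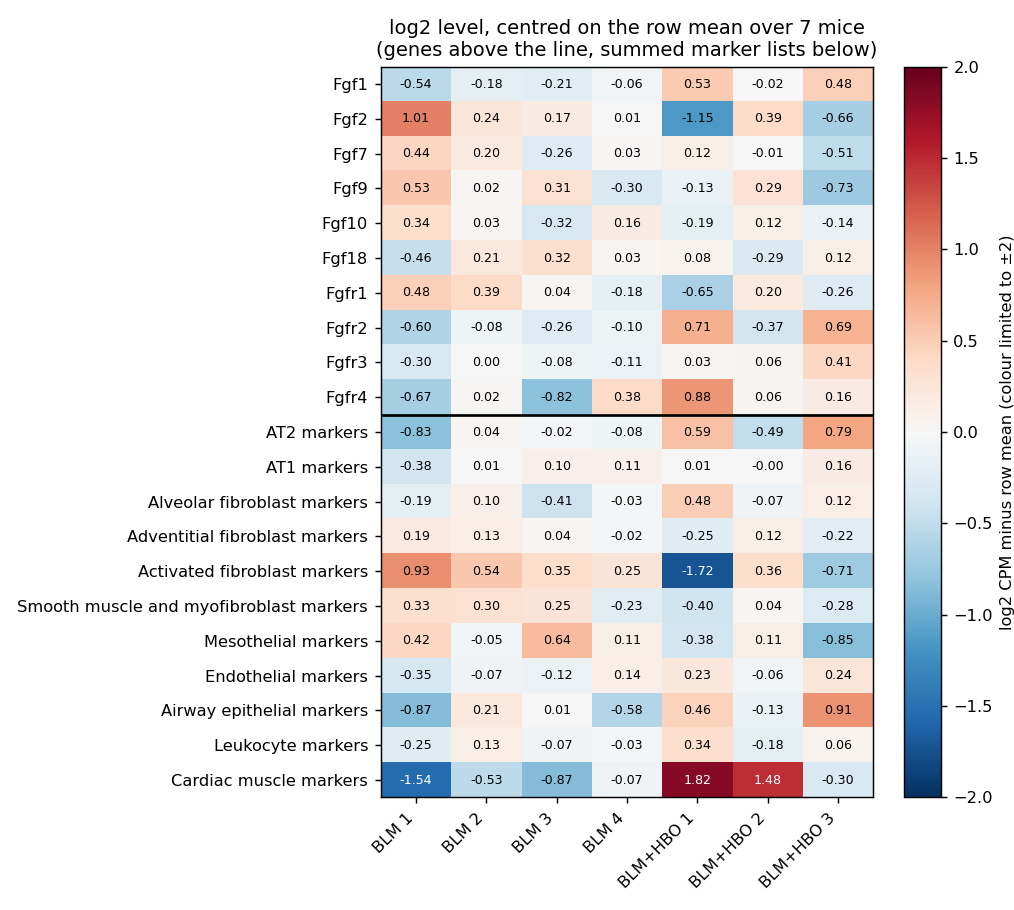
Log2 CPM of the 10 FGF genes (above the line) and log2 summed CPM of 11 marker lists (below it) in each of 7 mice (columns), centred on the mean of each row, with red above and blue below that mean. Fgfr2 and AT2 markers share their 2 highest mice, BLM+HBO 1 and BLM+HBO 3, where Fgf2 and activated fibroblast markers have their 2 lowest values. The same 2 mice are highest for airway epithelial, endothelial and alveolar fibroblast markers. They are lowest for mesothelial, adventitial fibroblast and smooth muscle markers.

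The genes whose profiles were closest over the 7 mice were named for the 3 FGF genes with the largest spread, by the mean absolute difference of centred log2 CPM. For Fgf2, with an SD of 0.71 over the mice on the log2 scale, they were Adamts14 (0.0771), a procollagen-processing protease, Prrx1 (0.104), a transcription factor of mesenchymal cells, and the pseudogene Amd-ps3 (0.107). For Fgfr2, with an SD of 0.51, they were Cyp4b1 (0.0818), a cytochrome P450 of the lung, the mucin gene Muc20 (0.0851) and Hnmt (0.0947), which encodes a histamine methyltransferase. For Fgfr4, with an SD of 0.59, they were the chemokine receptor gene Ccr6 (0.0939), Tnfsf10 (0.112), which encodes TRAIL, and the adaptor gene Grap2 (0.127). All mice shared the same tissue and bleomycin injury, and this likeness is a description.

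The rest of the FGF pathway was described from 6 lists with 93 genes, of which 76 were tested. Of these 76, 3 passed the thresholds (3.95%), against 6.29% of all tested genes, and their median log2 fold change was -0.09. Of the 12 other secreted ligands, only Fgf23, a hormone of phosphate balance, passed the filter, with a log2 fold change of -1.40 ± 0.66 (SE) and an adjusted P of 0.492. The other 11 had at most 65 reads each over the 7 mice. The 4 intracellular FGF homologous factors, which do not act through FGF receptors, had 0 past the thresholds and log2 fold changes between -0.36 and 0.28.

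Among 7 tested co-receptors and binding proteins, Fgfbp1, which releases FGFs from heparan sulfate, rose, as did 3.40% of all tested genes. Fgfbp1 was at 7.21, 6.20, 6.42 and 3.11 CPM in BLM mice and at 16.0, 5.12 and 11.3 CPM in BLM+HBO mice, so that the groups overlapped through BLM+HBO 2. Its log2 fold change was 0.91 ± 0.39 (SE), with an unadjusted P of 0.0414 and an adjusted P of 0.459. Leaving out BLM 2, BLM 3 or BLM 4, or else BLM+HBO 1 or BLM+HBO 3, ended the call, at 0.52 to 0.97, and so did limma-trend, at 0.82. Fgfbp1 passed in 7 of 14 alternative fits. Fgfrl1, a receptor without a kinase domain, had a log2 fold change of 0.02 ± 0.11 (SE). Nptn, Glg1 and Flrt3, which encode membrane or Golgi proteins that bind FGFs or their receptors, had log2 fold changes of -0.13, -0.22 and 0.12 and did not pass.

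Among 24 tested heparan sulfate core proteins and enzymes, 0 passed both thresholds, while 4 had an unadjusted P below 0.05 and a lower mean in BLM+HBO (16.7%, against 5.54% of all tested genes), and none a higher one. They were named after their values were seen. The core protein genes Gpc4 and Sdc4 had log2 fold changes of -0.52 ± 0.14 and -0.31 ± 0.12 (SE), with no overlap between the groups and adjusted P of 0.423 and 0.440. They were the only 2 of the 24 genes without overlap, against 8.77% of all tested genes. Ext1, a polymerase of the chain, and Hs6st1, a sulfotransferase, had log2 fold changes of -0.49 ± 0.16 and -0.34 ± 0.15 (SE), with overlapping groups and adjusted P of 0.423 and 0.467. Without BLM+HBO 2, Gpc4 (-0.66) and Ext1 (-0.69) passed both thresholds, with adjusted P of 0.0597 and 0.0624. In that fit 10.7% of all tested genes passed, and Sdc4 (-0.40) and Hs6st1 (-0.45) did not. The most abundant genes of the list by CPM, Ndst1 and Agrn, had log2 fold changes of 0.03 ± 0.14 and -0.02 ± 0.18 (SE).

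The relay from receptor to ERK had 0 of 23 genes past the thresholds, with log2 fold changes between -0.27 and 0.42. Its 2 most abundant genes by CPM were Mapk3, which encodes ERK1, at 0.03 ± 0.13 (SE), and Ptpn11, which encodes the phosphatase SHP2, at -0.27 ± 0.13 (SE) and an adjusted P of 0.509. RNA levels of a kinase do not measure its activity.

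Among 17 tested feedback inhibitors and targets of ERK signalling, 2 fell (11.8%, against 2.89% of all tested genes), Myc and Etv4. Myc, a growth-promoting transcription factor with many inputs besides FGF, was at 39.3, 30.4, 42.9 and 26.5 CPM in BLM mice and at 19.1, 24.6 and 14.3 CPM in BLM+HBO mice. Every BLM+HBO mouse was below every BLM mouse, BLM+HBO 2 included, and 8.77% of all tested genes did not overlap either. The log2 fold change of Myc was -0.85 ± 0.22 (SE), with an unadjusted P of 0.00352 and an adjusted P of 0.423 by edgeR and an adjusted P of 0.0362 by DESeq2, where 0.918% of the genes with an adjusted P passed. It passed the thresholds of the study in all 14 alternative fits, 7 of them with 1 mouse left out.

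Etv4, an ETS factor induced by FGF and ERK signalling, was at 14.4, 12.0, 16.2 and 10.4 CPM in BLM mice and at 4.79, 12.0 and 5.51 CPM in BLM+HBO mice. BLM+HBO 1 and BLM+HBO 3 were below every BLM mouse and BLM+HBO 2 was within their range, the order also seen for Fgf2 and Fgfr1. The log2 fold change of Etv4 was -0.84 ± 0.32 (SE), with an unadjusted P of 0.0266 and an adjusted P of 0.438. It was -1.36 without BLM+HBO 2, with an adjusted P of 0.0381, in a fit where 1.49% of all tested genes were below 0.05. Etv4 did not pass when BLM 1 (-0.80), BLM 3 (-0.72), BLM+HBO 1 (-0.61) or BLM+HBO 3 (-0.66) was left out. Dusp6, an ERK phosphatase and feedback inhibitor, had a log2 fold change of -0.18 ± 0.18 (SE), and Ccnd1, the cyclin D1 gene, one of 0.06 ± 0.13 (SE), with adjusted P of 0.751 and 0.894. The list did not go 1 way, with 7 of 17 means higher in BLM+HBO and 10 lower. Highest were Etv5, also an AT2 marker here, at 0.315 ± 0.24 (SE) and Spry2 at 0.26 ± 0.12 (SE). Their adjusted P were 0.659 and 0.477.

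**Figure D5:**
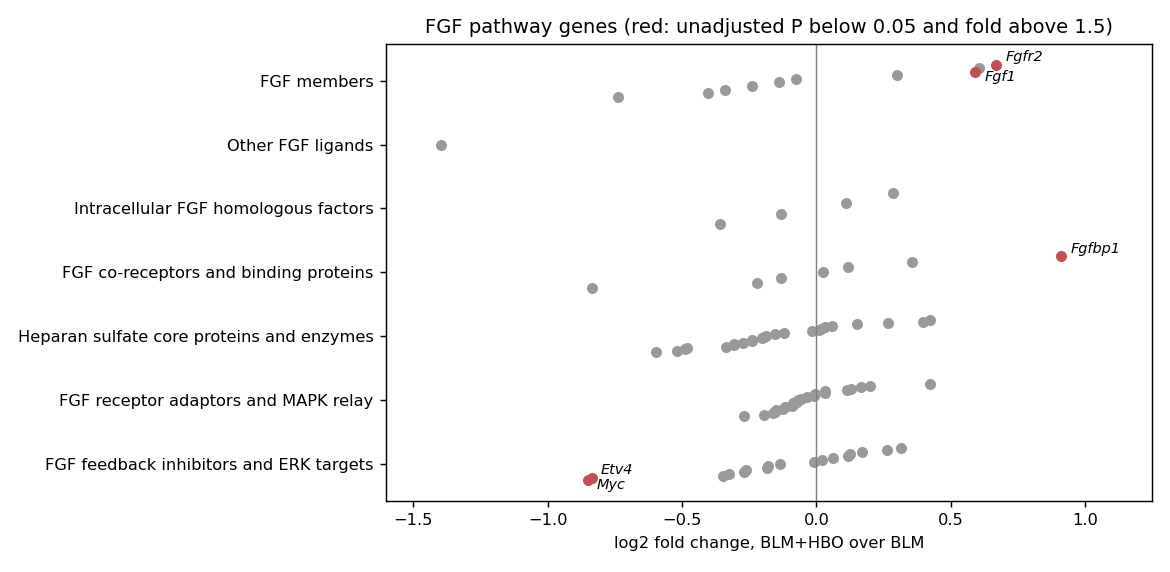
Log2 fold change of BLM+HBO over BLM (horizontal axis) for each tested gene of the 10 FGF ligands and receptors and of 6 further pathway lists, with genes past the thresholds in red. The red points outside the first row are Fgfbp1 at 0.91, Etv4 at -0.84 and Myc at -0.85.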

How the data were processed

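Total RNA from lung was made into NEBNext Ultra libraries and sequenced as paired ends. After trimming with Trim Galore, the authors aligned them to GRCm38 with HISAT2 (2.2.0 in the submitters' processing notes) and deposited raw read counts per gene from featureCounts, with no normalization. With default settings strand is ignored, and reads with several alignments or in several genes are not counted, so shared exon bases lower a count. The annotation release is not given in the sources used here; symbols came from GENCODE vM21 (55141 of 55401 identifiers). All value columns were assigned to mice from the sample records. Each library was taken as 1 mouse, and libraries of a group differed by more than sampling noise (chi-square per gene of at least 22.1). By this measure BLM+HBO 2 was nearer to BLM 4 (13.0) and BLM 3 (19.0) than to BLM+HBO 1 (64.3) and BLM+HBO 3 (57.5).

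Genes with low counts were removed by filterByExpr (minimum count 10, and 15 in total), and counts were normalized by TMM and tested in edgeR 4.0.16 under R 4.3.3, BLM against BLM+HBO, with no covariate. Log2 CPM used a prior count of 2. P values were two-sided. DESeq2 1.42.0, limma-trend (limma 3.58.1), RLE and upper-quartile factors, no filter, a filter of 1 CPM in 3 mice, a replicate block, other thresholds and leaving out each mouse were alternatives. The FGF genes and all lists were chosen with earlier results of these data known, so list counts are descriptions. Etv5 and Gpc3 each stood in a pathway list and a marker list.

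Named were all 10 FGF genes, pathway genes with an unadjusted P below 0.05 at any fold, and up to 4 others per list by highest mean CPM. Etv5 and Spry2 were named for the highest log2 fold changes of their list. The 3 closest profiles for each of 3 FGF genes were also named, and some markers as examples of their lists. Depth was 18157161 to 26365969 counts per mouse.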

Additional observations from a re-analysis of the deposited data

Results flagged for a closer look

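Among 28 sets of values of the 4 BLM mice, Dixon's test at the 95% level singled out 2, where chance alone singles out about 1 in 20. The first was the total count, 19002242 in BLM 4 against 18436336 to 18452895 in the other 3 BLM mice, so the total of BLM 4 stands apart by little in absolute terms. The second was the log2 CPM of Fgfrl1, 5.12 in BLM 3 against 4.90 to 4.93 in the other 3 BLM mice. Fgfrl1 did not pass the test between groups. Groups of 3 mice were not examined in this way.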

How the results depend on the processing

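The number of genes past the thresholds of the study was 1098, and 1940 with no filter on low counts, 319 at a P limit of 0.01, 1861 with no fold limit and 659 to 1914 when 1 mouse was left out (the lowest without BLM+HBO 1, 706 without BLM 1, the highest when BLM+HBO 2 was dropped). At adjusted P below 0.05 it was 0 by edgeR, 155 by DESeq2, 387 with no filter and 0 to 267 with 1 mouse left out (267 without BLM+HBO 2). Of the 10 FGF genes 2 passed, 1 at a P limit of 0.01 and 0 to 4 with 1 mouse left out, with 0 when BLM 1, BLM+HBO 1 or else BLM+HBO 3 was dropped and 4 without BLM+HBO 2. Fgfr2 passed in 10 of 14 alternative fits and Fgf1 in 8. With no filter Fgf1 had an adjusted P of 0.0393 but a fold under the limit, and over all fits its adjusted P reached 0.802. Of the other pathway genes 3 passed, against 5 by DESeq2, 6 with no filter, 1 at a P limit of 0.01, 7 with no fold limit and 1 to 9 with 1 mouse left out (1 without BLM+HBO 1 or BLM+HBO 3, 9 without BLM+HBO 2). The cause of these shifts was not tested.

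The log2 fold change changed sign in some fits that left out 1 mouse, over a range of -0.22 to 0.041 for Fgf18, -0.0013 to 0.075 for Fgfrl1, -0.078 to 0.13 for Ndst1, -0.17 to 0.16 for Agrn, -0.056 to 0.085 for Mapk3 and -0.058 to 0.12 for Ccnd1. Agrn was also above 0 with upper-quartile factors (0.0056). The replicate block gave 1258 genes past the thresholds, 0 after adjustment, 2 FGF genes (Fgf1 and Fgfr4) and 3 pathway genes, without Fgfbp1 (0.58), and 0.047 for Agrn. The replicate numbers were not taken as pairs. Deviations of same-numbered mice correlated at -0.01, -0.07 and 0.16. BLM 1 and BLM 2 correlated best with a mouse of another number, and BLM 3 with BLM+HBO 3. With so few mice these correlations cannot settle whether mice were paired. Fgf9, at 15 to 27 reads per mouse, is limited by depth.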
